A study of Arabidopsis thaliana with 14 samples.

Results

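Seed of the Arabidopsis thaliana mutant ga1-3, which makes almost no gibberellin, held a set of transcripts whose level on every mutant array lay above the level on every wild type array. The transcripts described here are the probe sets whose lowest log2 intensity over the 6 ga1-3 arrays lay at least 1 above the highest over the 8 arrays of the Landsberg erecta (Ler) wild type, with a ga1-3 mean of 4 or more on the log2 scale. A probe set is a group of short probes that report 1 transcript, and a gap of 1 on the log2 scale is a doubling of intensity. Of 22746 probe sets, 128 met these thresholds. PRX52, MYC3, EXPA4, BGLU25, SAG29, UGT84A1 and UGT71B1 were then left out by name, which left 121. The platform annotation pairs 58 of the 121 with 1 gene. The other 63, paired with none or with several, carry no gene name here and are given by probe set only. The members were chosen by these genotype values, so the genotype difference of a member is a description, and a count of genotype calls over the members is fixed by that choice.

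The arrays fall into 4 groups: ga1-3 on KAR1 (3 arrays), ga1-3 on water (3 arrays), Ler on KAR1 (4 arrays) and Ler on water (4 arrays). All seed was primary dormant, came from plants kept in continuous light, was frozen until use at a temperature that preserves dormancy, and was imbibed for 24 h at 20 C under white light of 100 uE on agar of 0.8%. KAR1, a butenolide formed when plant matter burns, was given at 1 uM. The letters A to D name separately harvested seed batches, so the KAR1 array and the water array of 1 letter and genotype share their seed, while batch A of ga1-3 and batch A of Ler are different seed. The 6 ga1-3 arrays thus stand for 3 seed batches and the 8 Ler arrays for 4. The labels give an ecotype for the wild type arrays alone, and the mutant is a single allele, so its background and any other change linked to the allele cannot be told apart from the lack of gibberellin.

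GA1 encodes ent-copalyl diphosphate synthase, which makes the committed precursor of gibberellins. Gibberellin binds GID1 receptors, the receptor then holds DELLA proteins, and SCF complexes with the F-box protein SLEEPY1 mark those repressors for degradation. In Arabidopsis seed this pathway is known for allowing wall loosening in the embryo and endosperm and the emergence of the radicle, and ga1-3 seed does not germinate unless gibberellin is supplied.

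On the linear scale the arrays had median intensities of 10.4 to 12.6, and 46.8% to 47.6% of probe sets reached 16, which is 4 on the log2 scale. Of the probe sets paired with 1 gene, none is for GA1 and none for the 12 seed tissue markers. Thus neither the mutated gene nor the tissue label was checked against them. Of 3 leaf and 3 root markers, 1 each was measured. RCA, rubisco activase and the leaf marker, averaged 4.91 ± 0.13 in ga1-3 and 3.65 ± 0.27 in Ler, while PYK10, a beta-glucosidase of roots, averaged 2.51 ± 0.12 in ga1-3 and 5.65 ± 0.82 in Ler (log2 intensity, SD over 6 and 8 arrays). The array's own control probe sets for the 3′ end of GAPDH averaged 11.50 in ga1-3 and 10.12 in Ler, and those for 5S ribosomal RNA 7.42 in ga1-3 and 9.47 in Ler. The GAPDH signal of the 3′ end minus that of the 5′ end, a sign of RNA integrity, ran from 1.55 to 1.99 in ga1-3 and from 1.52 to 2.14 in Ler. The part of tissue makeup and of scaling in the values below was not tested, and in whole seed fewer cells of a type and less RNA per cell cannot be told apart.

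Across the 121 probe sets the ga1-3 mean exceeded the Ler mean by 1.18 to 5.37 on the log2 scale, with a median of 2.05, against a median of -0.002 over all 22746 probe sets. The gap between the nearest arrays of both genotypes had a median of 1.26, was under 1.5 for 88 probe sets and under 1.1 for 32, and reached 2 for 9. Within ga1-3 the 6 arrays spanned a median of 0.65, and within Ler the 8 arrays spanned 0.63. In a limma fit over all probe sets, all 121 were higher in ga1-3 with a Benjamini-Hochberg adjusted p under 0.05, on water and on KAR1 alike, where 19.7% and 19.3% of all probe sets were; the rule fixes that count. Complete separation, all ga1-3 arrays above all Ler arrays, held for 15% of all probe sets, and separation by at least 1 with the level asked for held for 0.563%.

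For most members the wild type signal lay low. All 8 Ler arrays were under an intensity of 16 for 79 probe sets, some were for 19 and none was for 23. Over those 23 the fold from the means ran from 2.66 to 10.2 with a median of 4.22. For the 79, where a dim signal after GCRMA background adjustment may hold little but background, the fold is given as a bound, the ga1-3 mean against an intensity of 16. These bounds ran from 1.02 to 14.6 with a median of 1.85, and 33 of them reached 2. With the floor of 16 laid on all values before the gap was taken, 55 of the 121 would still have been chosen.

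**Figure D1:**
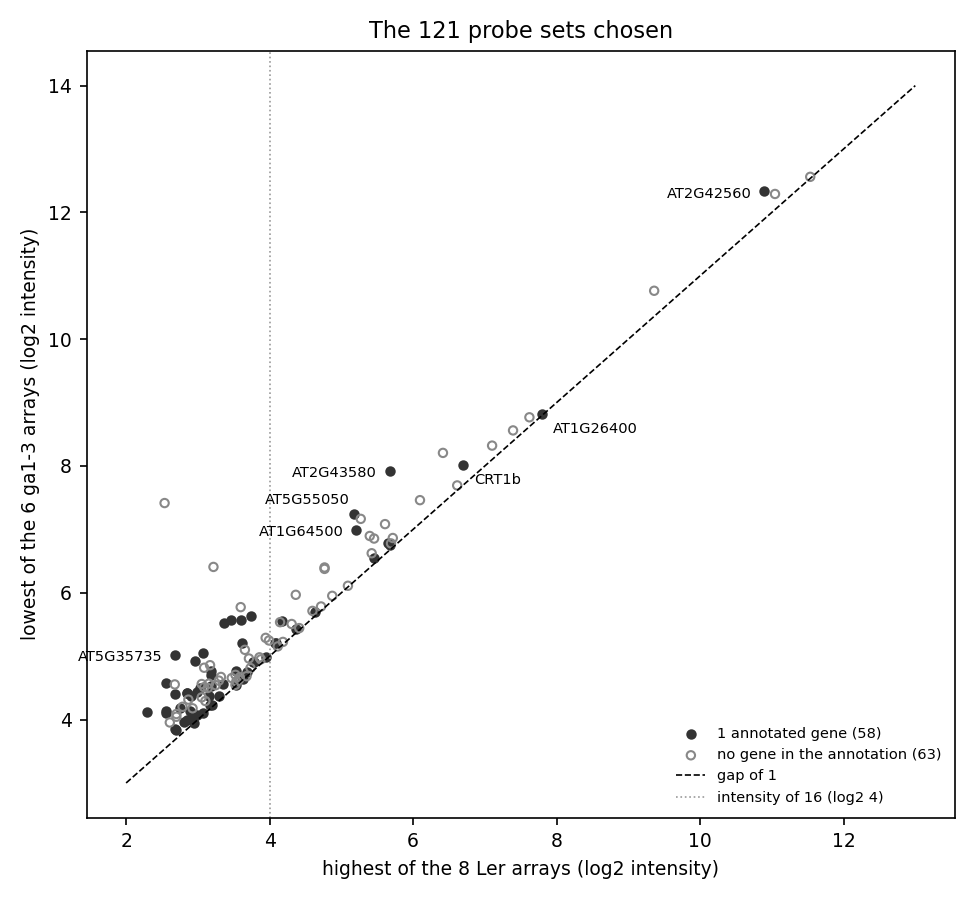
Each of the 121 probe sets by its highest Ler array (horizontal axis, log2 intensity) and its lowest ga1-3 array (vertical axis, log2 intensity). Points are filled where the annotation gives 1 gene and open where it does not. All points lie on or above the dashed line of a gap of 1, most of them near it, and most lie left of the dotted line at an intensity of 16.

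Seed protection and protein folding were represented by 2 members, both measured over 16 on all arrays. AT2G42560 encodes a late embryogenesis abundant protein, one of the hydrophilic proteins that build up as seed matures and dries. Its log2 intensity was 12.45, 12.96 and 13.16 in ga1-3 batches A, B and C on KAR1 and 12.33, 13.21 and 13.25 on water, against 6.99, 9.86, 10.26 and 10.89 in Ler batches A to D on KAR1 and 6.84, 10.64, 10.10 and 10.82 on water. Both arrays of Ler batch A stood far below the other Ler arrays. The mean difference was 3.34, or 10.2-fold, over all arrays, and 2.47, or 5.53-fold, without Ler batch A. CRT1b, a calreticulin that binds calcium and assists folding in the endoplasmic reticulum, held 8.01, 8.16 and 8.25 in ga1-3 (lowest, median and highest array) and 5.91, 6.36 and 6.70 in Ler, which is 3.45-fold between the means.

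Enzymes linked to defence and to the cell wall gave 4 annotated members. AT2G43580, of the chitinase family, had 7.96, 8.59 and 8.52 in ga1-3 on KAR1 and 7.93, 8.92 and 8.68 on water, against 4.88, 5.27, 5.42 and 5.63 in Ler on KAR1 and 4.72, 5.39, 5.34 and 5.67 on water. No Ler array came within 2.25 of the lowest ga1-3 array, and the means differed 8.84-fold. A second chitinase family gene, AT2G43620, lay 4 genes away in the order of the annotation and read 4.23, 4.97 and 5.55 in ga1-3 (lowest, median, highest) and 2.35, 2.46 and 3.17 in Ler, at least 1.94-fold higher in ga1-3. AT5G55050, a lipase of the GDSL family, kept to a narrow band in ga1-3, with 7.24, 7.34 and 7.56 in ga1-3 and 4.22, 4.74 and 5.18 in Ler and 6.38-fold between the means. Pectin methylesterases remove methyl groups from wall pectin, and 1 of that family, AT3G60730, measured 4.92, 5.34 and 5.67 in ga1-3 against 2.81, 2.91 and 2.96 in Ler, at least 2.43-fold.

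Growth signals and wall proteins were low in both genotypes but tight. EXO, the EXORDIUM protein that mediates growth promotion by brassinosteroid, read 4.19 to 4.31 over the ga1-3 arrays and 2.46 to 2.74 over the Ler arrays. RALFL33 belongs to the RALF peptides, secreted signals that bind receptor kinases at the cell surface. Its ga1-3 arrays spanned 4.76 to 4.82 and its Ler arrays 3.29 to 3.54. AT3G01720, a galactosyltransferase that modifies serine in extensins, averaged 4.25 ± 0.17 in ga1-3 and 2.51 ± 0.20 in Ler (SD, n = 6 and 8). For these 3 genes the bound on the fold lay at 1.19, 1.22 and 1.71 in the order AT3G01720, EXO and RALFL33.

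Transferases that join acyl groups or sugars to small molecules made up 5 of the annotated members. AT5G42830 and AT5G01210 belong to the HXXXD family of acyltransferases, which esterify plant secondary metabolites. AT5G42830 had 5.93, 6.42 and 6.53 in ga1-3 on KAR1 and 5.57, 6.22 and 6.04 on water, against 3.15, 3.60, 3.19 and 3.17 in Ler on KAR1 and 3.17, 3.25, 3.15 and 3.19 on water, at least 4.34-fold higher in ga1-3. AT5G01210 gave 6.54, 6.85 and 7.21 in ga1-3 and 3.70, 4.86 and 5.45 in Ler, and AT1G28680, known as coumarin synthase, gave 4.50, 5.02 and 5.17 in ga1-3 and 2.66, 2.85 and 3.04 in Ler. AT2G22590 and AT5G53990 encode UDP-glycosyltransferases, and they stand in the annotation under locus names, so leaving out symbols that begin with UGT did not reach them.

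The UDP-glycosyltransferase gene AT2G22590 combined a large mean difference with the widest spread over ga1-3 arrays among annotated members. It read 6.23, 9.20 and 8.81 in ga1-3 batches A, B and C on KAR1 and 4.98, 8.44 and 8.09 on water, against 2.61, 3.04, 3.94 and 2.61 in Ler A to D on KAR1 and 2.54, 2.96, 2.61 and 2.38 on water. Both arrays of ga1-3 batch A lay more than 2 log2 units below those of B and C, and the gap of 1.04 to Ler rested on ga1-3 water A and Ler KAR1 C. The ga1-3 mean was at least 12.3-fold above the Ler level over all arrays, and at least 24.9-fold without ga1-3 batch A. AT5G53990 was the last member inside the threshold, with an intensity exactly 2 times that of the nearest Ler array, at 3.94, 4.73 and 5.32 in ga1-3 and 2.63, 2.72 and 2.94 in Ler.

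Redox enzymes were the members AT1G26400, AT1G64500, 2A6, GSTL3, AT5G21105 and AT4G39230. AT1G26400 encodes an oxidase of the berberine bridge enzyme-like family and read 8.82, 9.33 and 9.77 in ga1-3 and 6.65, 7.42 and 7.80 in Ler, a 3.98-fold difference of means. The glutaredoxin-related AT1G64500 had 6.99, 8.05 and 7.93 in ga1-3 on KAR1 and 7.04, 7.64 and 7.91 on water, against 4.13, 4.99, 4.77 and 5.20 in Ler on KAR1 and 3.95, 4.80, 4.31 and 4.48 on water. Its lowest values in both genotypes were the A arrays, and its means differed 8.07-fold, with 1 Ler array under 16. 2A6, an oxygenase that depends on 2-oxoglutarate and iron, held 5.64, 5.92 and 6.08 in ga1-3 and 3.15, 3.49 and 3.74 in Ler, at least 3.68-fold. GSTL3, a lambda class glutathione transferase, averaged 4.47 ± 0.14 in ga1-3 and 2.94 ± 0.15 in Ler, and it was the single member among 14 probe sets whose annotation names a glutathione S-transferase. AT5G21105, of the ascorbate oxidase family, averaged 4.46 ± 0.11 in ga1-3 and 3.16 ± 0.10 in Ler. AT4G39230, related to phenylcoumaran benzylic ether reductase, averaged 5.63 ± 0.17 in ga1-3 and 4.11 ± 0.39 in Ler (SD, n = 6 and 8 throughout).

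Regulators of light response and transcription included HAT2 and AFR. HAT2 is a homeodomain-leucine zipper factor of the class that answers to auxin and to shade. It measured 5.48, 4.91 and 5.31 in ga1-3 on KAR1 and 6.20, 6.21 and 6.22 on water, against 2.98, 2.96, 3.02 and 3.07 in Ler on KAR1 and 3.57, 3.45, 3.79 and 3.28 on water. In both genotypes every KAR1 array lay below every water array, and the genotypes were apart by 1.12. AFR, an F-box protein with kelch repeats that acts in far-red light signalling through phytochrome A, had 4.66, 5.53 and 5.05 in ga1-3 on KAR1 and 4.41, 4.50 and 4.60 on water, against 2.70, 2.81, 2.72 and 2.83 in Ler on KAR1 and 2.70, 2.85, 2.70 and 2.72 on water. AT2G29660, a zinc finger family protein, read 5.57, 5.58 and 5.88 in ga1-3 and 2.66, 2.93 and 3.46 in Ler, at least 3.09-fold. AT4G16150, of the calmodulin-binding CAMTA activators, averaged 4.83 ± 0.32 in ga1-3 and 2.56 ± 0.21 in Ler. The RING protein ATCRT1 averaged 4.95 ± 0.36 in ga1-3 and 3.25 ± 0.23 in Ler and lay just inside the threshold with a gap of 1.01.

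**Figure D2:**
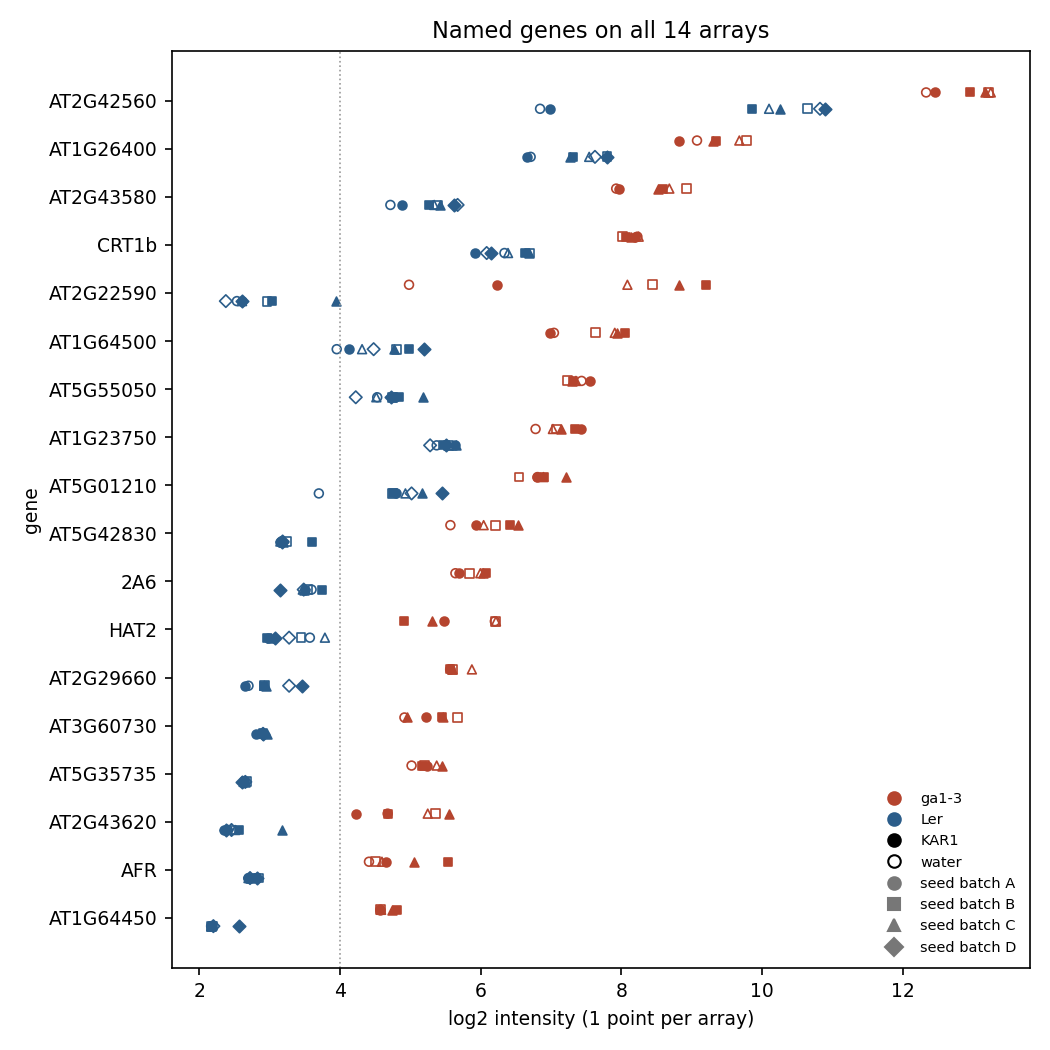
Log2 intensity of 18 annotated genes on all 14 arrays, ga1-3 in red above Ler in blue within each gene, filled on KAR1 and open on water, with a marker shape per seed batch. For each gene the red points lie right of the blue ones, as the rule requires. For AT2G42560, AT1G26400, AT2G43580 and AT1G64500 the circles of batch A stand to the left of the other batches in both genotypes.

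Kinases, calcium binding and transport were represented by 7 members. The protein kinase family genes AT1G69910, AT3G05050 and AT1G25390 were at least 1.45, 2.04 and 1.05 times as high in ga1-3 as in Ler, where all arrays lay under 16. AT3G10300, with calcium-binding EF hands, averaged 5.99 ± 0.54 in ga1-3 and 3.42 ± 0.10 in Ler. AT5G18840, of the sugar transporter family, measured 5.59, 4.70 and 4.83 in ga1-3 batches A, B and C on KAR1 and 6.40, 5.30 and 5.09 on water, while its Ler arrays spanned 2.81 to 3.19. Here batch A was the high one of the ga1-3 batches. The nitrate and peptide transporter family gene AT1G22540 averaged 4.05 ± 0.13 in ga1-3 and 2.59 ± 0.07 in Ler, and the nucleotide-sugar transporter family gene AT5G11230 averaged 4.55 ± 0.39 in ga1-3 and 2.51 ± 0.02 in Ler (SD, n = 6 and 8).

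Trafficking and scaffold proteins, RNA binding proteins and 2 metabolic enzymes completed the annotated members with a role. AT3G50590, a WD40 protein of the TPLATE complex that takes up plasma membrane cargo, spanned 5.05 to 5.22 in ga1-3 and 3.04 to 3.07 in Ler. The epsin family gene AT2G43160, whose product helps to form coated vesicles, averaged 6.04 ± 0.61 in ga1-3 and 3.42 ± 0.44 in Ler. AT1G24530 and AT5G07590, with WD40 repeats, spanned 4.12 to 4.61 and 4.10 to 4.12 in ga1-3, and 2.23 to 2.29 and 2.58 to 3.07 in Ler. AT3G46450, with a SEC14 lipid-transfer domain, and AT5G20110, a dynein light chain, were at least 1.62-fold and 1.3-fold higher in ga1-3. AT1G77030, a DEAD-box RNA helicase, averaged 6.03 ± 0.24 in ga1-3 and 3.81 ± 0.46 in Ler, and AT3G28500, an acidic protein of the ribosomal stalk, was at least 2.6-fold higher in ga1-3. Of the pentatricopeptide repeat genes, a family that processes organelle RNA, AT5G15980 averaged 4.72 ± 0.29 in ga1-3 and 2.72 ± 0.17 in Ler, and AT4G26680 4.55 ± 0.32 in ga1-3 and 2.60 ± 0.10 in Ler. AT1G64190, a 6-phosphogluconate dehydrogenase of the pentose phosphate pathway, and AT3G49160, of the pyruvate kinase family, were at least 1.63-fold and 1.85-fold higher in ga1-3.

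A further 14 annotated members have no role described here, though several had wide gaps. AT5G35735, of an auxin-responsive family, read 5.02, 5.22 and 5.45 in ga1-3 and 2.61, 2.64 and 2.68 in Ler, at least 2.36-fold, with the widest gap among annotated members at 2.34. AT1G64450 read 4.57, 4.58 and 4.82 in ga1-3 and 2.17, 2.17 and 2.56 in Ler, at least 1.56-fold. AT1G23750, with a fold that binds nucleic acids, had 6.78, 7.11 and 7.42 in ga1-3 and 5.28, 5.53 and 5.64 in Ler, 3.09-fold between means that were both over 16. AT5G63130, a PB1 domain protein, averaged 6.92 ± 0.14 in ga1-3 and 5.51 ± 0.12 in Ler, 2.66-fold. AT3G19680 averaged 5.90 ± 0.53 in ga1-3 and 3.07 ± 0.57 in Ler, and AT1G65500 averaged 5.50 ± 0.73 in ga1-3 and 3.39 ± 0.21 in Ler (SD, n = 6 and 8). AT3G31955, a pseudogene in the gene table, was measured by a probe set whose name ends in _s_at, the platform's mark for probes shared among transcripts, so its 5.86 ± 0.16 in ga1-3 against 3.02 ± 0.19 in Ler may come from another locus. AT4G18570 and AT5G37010 were among the tightest, with 4.56 to 4.58 and 4.77 to 4.83 over the ga1-3 arrays.

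Among the probe sets with no gene name were the members with the widest separation, which are named here after their values were seen. Probe set 254452_at read 7.81, 7.91 and 8.05 in ga1-3 on KAR1 and 7.42, 7.95 and 8.09 on water, against 2.49, 2.54, 2.54 and 2.51 in Ler on KAR1 and 2.46, 2.51, 2.49 and 2.51 on water. Its gap of 4.88 was the widest of all 121, and its ga1-3 mean was at least 14.6-fold above the Ler level. The next gap, 3.19, was that of 259553_x_at, which averaged 6.75 ± 0.19 in ga1-3 and 3.05 ± 0.10 in Ler, at least 6.72-fold. Its name ends in _x_at, and whether its signal comes from a single transcript was not tested. Large mean differences came with narrower gaps in 2 more. 251984_at averaged 9.37 ± 1.21 in ga1-3 and 4.01 ± 1.01 in Ler, and 263845_at averaged 9.76 ± 0.95 in ga1-3 and 4.87 ± 1.34 in Ler (SD, n = 6 and 8), with gaps of 1.90 and 1.79 and wide spreads within each genotype. Unnamed members were also found at high signal, 252885_at, at 12.56, 13.10 and 13.19 in ga1-3 and 9.61, 11.12 and 11.54 in Ler, and 253894_at, at 12.29, 12.79 and 13.06 in ga1-3 and 10.19, 10.55 and 11.04 in Ler, each measured far over 16 on all arrays.

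The threshold cuts through a continuous range. Just inside it lay ATCRT1, AT3G46450 and AT5G53990, with gaps of 1.01, 1.01 and 1.00. Just outside lay AT5G35430, UBP21, a ubiquitin protease, and AT4G37250, with gaps of 0.98, 0.94 and 0.93. The probe sets left out by name had gaps of 3.18 for EXPA4, 3.01 for PRX52, 1.77 for MYC3, 1.70 for SAG29, 1.26 for UGT71B1, 1.12 for UGT84A1 and 1.01 for BGLU25, and TUB7 did not meet the thresholds.

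A second probe set was present for 3 annotated members and did not reach the rule for any of them. For AT3G50590 it averaged 7.04 ± 0.15 in ga1-3 and 6.24 ± 0.48 in Ler, a difference of 0.81 against 2.05 for the member. For AT2G43160 it averaged 8.77 ± 0.21 in ga1-3 and 8.12 ± 0.55 in Ler, a difference of 0.65 against 2.62. For 2A6 it read 2.20 in ga1-3 and 2.25 in Ler (log2 intensity, SD, n = 6 and 8), far under 16 in both, so it gives no direction. The probe sets of AT3G50590 and AT2G43160 thus disagreed in size, and which of them follows the transcript was not tested.

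Within each genotype, seed batch A lay low for most members. In ga1-3 the batch A arrays averaged below those of B and C for 100 of the 121 probe sets, or 82.6%, against 48.7% of all probe sets and 52.2% of those with a ga1-3 mean of 4 or more, and the median difference was -0.29. The lowest ga1-3 array came from batch A for 87 members, from its water array for 55 and from its KAR1 array for 32. Batch A lay at least 1 below the others for 13 members, among them AT2G22590 (-3.03), AT2G43160 (-1.17), AT3G28500 (-1.02) and AT3G10300 (-1.01). It lay at least 1 above them for 4, namely AT5G18840 (1.01), AT1G65500 (1.38), 248371_at (1.24) and 261768_at (1.29). In Ler, batch A averaged below B, C and D for 99 members, or 81.8%, against 61.5% of all probe sets and 66.3% of those with a ga1-3 mean of 4 or more. The median was -0.17 over the members, -0.03 over all probe sets and -0.16 over those at that level. Batch A of Ler lay at least 1 lower for 5 members, with AT2G42560 at -3.51. The highest Ler array, whose value the rule used, was a KAR1 array for 74 members, and 4 of the 8 Ler arrays were KAR1 arrays. The share over all probe sets was counted neither for this nor for the lowest ga1-3 array.

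Seed batch and the signal of the spiked-in controls moved together. By the 45 probe sets for spiked-in control transcripts the arrays were cut into 3 clusters, a number that was set and not tested. Ler A and B fell in the first, ga1-3 A with Ler C and D in the second and ga1-3 B and C in the third. This grouping was added after the data were seen. Within the second cluster, ga1-3 A minus Ler C and D had a median of 1.72 over the members and a lowest value of 1.06. Between the third and the first, ga1-3 B and C minus Ler A and B had a median of 2.25, and the difference was smaller within the second cluster for 101 of the 121. The second cluster holds ga1-3 A as its only ga1-3 batch, and that batch was lower than B and C for 100 members. Batch and cluster thus cannot be told apart in this count, and its share over all probe sets was not taken. Without both arrays of ga1-3 A, the rule would have chosen 410 probe sets. All 121 were among them, since leaving arrays out cannot narrow a gap and none fell under the minimum mean.

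**Figure D3:**
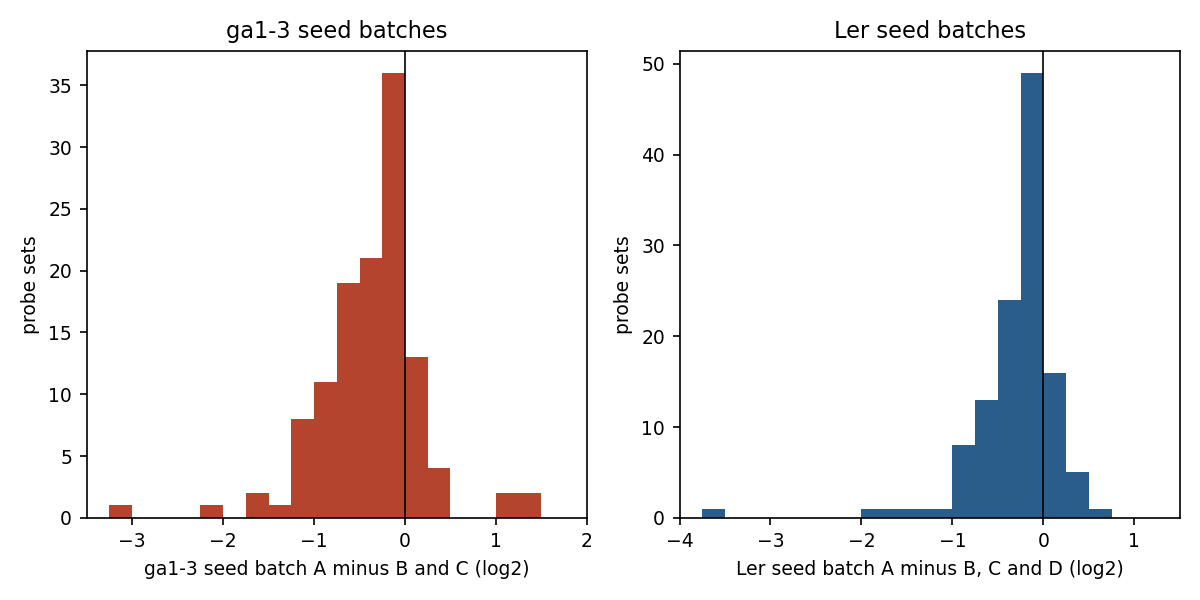
Number of the 121 probe sets by the log2 difference of seed batch A from the other batches of its genotype, ga1-3 on the left and Ler on the right, in steps of 0.25. Most bars stand left of 0 in both, with 100 of 121 probe sets lower in ga1-3 batch A and 99 lower in Ler batch A.

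KAR1 against water within a genotype was no part of the rule, and for most members the difference was small. The mean difference of KAR1 minus water over both genotypes had a median of 0.03, against -0.0002 over all probe sets, and was above 0 for 75 of the 121, or 62.0%, against 47.2% of all probe sets. It was under 0.25 in size for 104 members and over 0.5 for 9, with a median standard error of 0.13. The shares of all probe sets at these sizes were not counted, so the members cannot be called less responsive than others. With limma, 1 member passed an adjusted p under 0.05, where 0.022% of all probe sets did, and with the seed batch as block 3 did, where 0.378% did. With the spike-in cluster as block 2 did, where 0.119% did. At an unadjusted p under 0.05 there were 7 members without the block, or 5.79%, against 2.99% of all probe sets, and 26 with it, or 21.5%, against 10.7%.

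The member called on KAR1 without the block was HAT2, which fell by 0.74 ± 0.10 on the log2 scale (standard error, limma adjusted p = 0.0422, and 0.0424 with the seed batch as block). It was lower on KAR1 in 7 of 7 seed batches. The difference was -0.98 ± 0.15 in ga1-3 and -0.51 ± 0.13 in Ler, neither of which passed alone (limma adjusted p = 0.376 and 1.00), and the difference between these effects, -0.46 ± 0.20, did not pass either (adjusted p = 1.00). All Ler arrays of HAT2 lay under 16. The call is near the threshold: over 27 settings the value ran from -0.81 to -0.49 and the adjusted p from 0.0175 to 0.384, and it passed in 6.

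With the seed batch as block, 2 unnamed probe sets passed as well. 261768_at, which was also the 1 member called in ga1-3 with the spike-in cluster as block (2.44, limma adjusted p = 0.0294, where 0.0308% of all probe sets were called), read 8.89, 7.37 and 7.61 in ga1-3 batches A, B and C on KAR1 and 6.31, 4.50 and 5.75 on water, against 2.23, 2.26, 2.81 and 3.14 in Ler on KAR1 and 2.41, 2.23, 2.38 and 2.23 on water. Its mean difference was 1.37 ± 0.31 (limma adjusted p = 0.404, and 0.0384 with the block). The difference in ga1-3 was 2.44 ± 0.46 and in Ler 0.30 ± 0.40, and the difference between them, 2.14 ± 0.61, did not pass (adjusted p = 1.00, and 0.876 with the block). 248371_at read 8.81, 7.46 and 7.54 in ga1-3 on KAR1 and 9.07, 7.98 and 7.81 on water, against 3.43, 4.57, 3.66 and 4.73 in Ler on KAR1 and 4.74, 5.47, 4.96 and 6.10 on water. It was lower on KAR1 in 7 of 7 seed batches, with a mean difference of -0.78 ± 0.33 (limma adjusted p = 1.00, and 0.0214 with the block).

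**Figure D4:**
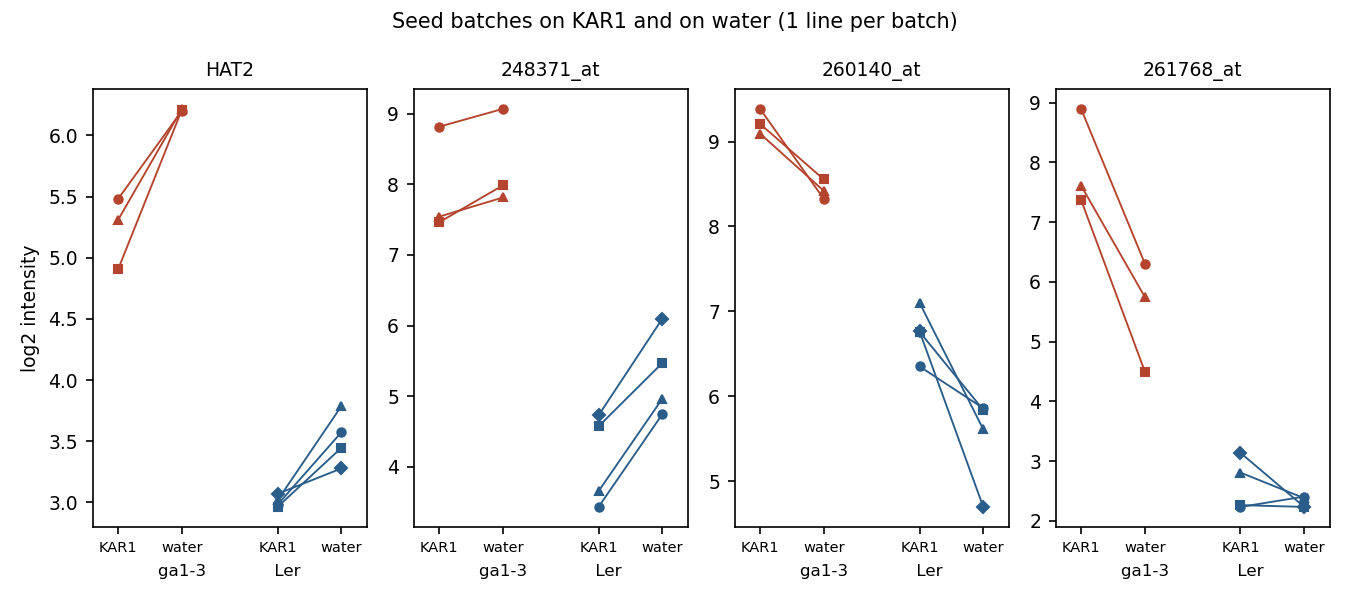
Log2 intensity of HAT2 and 3 probe sets with no gene name, KAR1 left of water, ga1-3 in red and Ler in blue, with a line for each seed batch. HAT2 and 248371_at are lower on KAR1 in each of the 7 batches, 260140_at is higher in each, and 261768_at is higher in each ga1-3 batch and in 3 of the 4 Ler batches.

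The probe set 260140_at was higher on KAR1 in 7 of 7 seed batches without passing either fit. It read 9.38, 9.21 and 9.09 in ga1-3 on KAR1 and 8.32, 8.55 and 8.42 on water, against 6.35, 6.76, 7.10 and 6.76 in Ler on KAR1 and 5.86, 5.84, 5.61 and 4.69 on water, a mean difference of 1.02 ± 0.18 (limma adjusted p = 0.144, and 0.0808 with the block). In all, 9 members moved 1 way in all 7 seed batches, or 7.44%, where 4.39% of all probe sets did. The other annotated one was AT2G22590, with a mean difference of 0.67 ± 0.60 (limma adjusted p = 1.00, 0.168 with the block). AFR had a mean difference of 0.30 ± 0.11, with 0.58 ± 0.17 in ga1-3 and 0.02 ± 0.14 in Ler, AT1G23750 one of 0.23 ± 0.08, AT5G55050 one of 0.21 ± 0.10 and AT5G21105 one of 0.13 ± 0.06, each with a limma adjusted p of 1.00. In the other direction AT1G26400 had -0.26 ± 0.22, AT3G19680 -0.42 ± 0.28 and AT4G26680 -0.15 ± 0.12, again at 1.00.

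By genotype, 69 of the 121 were above 0 for KAR1 minus water in ga1-3 and 70 were in Ler, with a median of 0.02 in each. No member passed in ga1-3 (limma, lowest adjusted p 0.376 without the block and 0.0708 with it, 7 members at an unadjusted p under 0.05 against 2% of all probe sets), where 0% of all probe sets passed without the block and 0.0132% with it. None passed in Ler (lowest adjusted p 0.751 without the block and 0.0556 with it, 5 members at an unadjusted p under 0.05 against 2.03% of all probe sets), where 0% passed in both fits. The KAR1 effects of the genotypes did not differ past the threshold for any member (limma, lowest adjusted p 1.00 without the block and 0.876 with it, 3 members at an unadjusted p under 0.05 against 0.51% of all probe sets). The standard error of that difference had a median of 0.26. Differences of that size between the genotypes were not detectable with these arrays, and much larger ones, such as that of 261768_at, did not pass either.

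**Figure D5:**
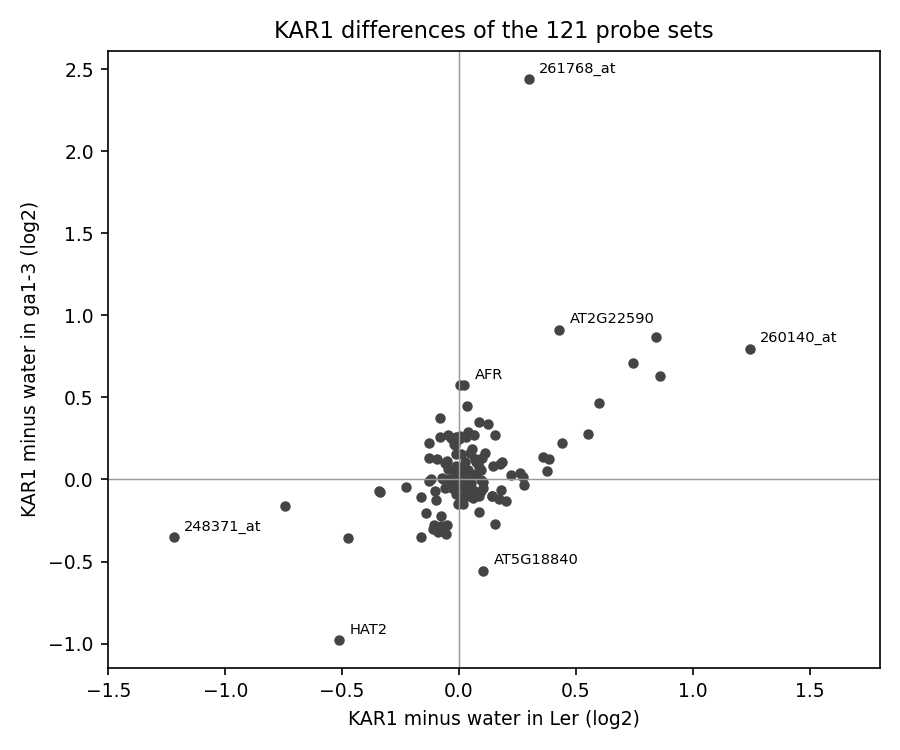
KAR1 minus water of each of the 121 probe sets, in Ler on the horizontal axis and in ga1-3 on the vertical axis, both in log2 units. On both axes 76 points lie within 0.25 of 0, and HAT2, 260140_at, 251984_at, 263845_at and 252652_at lie beyond 0.5 on both, while 261768_at stands out in ga1-3 and 248371_at in Ler.

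No listed gene of the gibberellin pathway was among the annotated members, and the 63 members with no gene name could not be placed. Of 20 genes of gibberellin synthesis and breakdown and 13 genes of abscisic acid and dormancy, none is the 1 gene paired with a probe set. Calls here are those of the fit without a block, since a letter names different seed in each genotype. Of 11 signalling genes 6 were measured, and the receptor gene GID1C was higher in ga1-3 by 0.91 on water and by 0.99 on KAR1 (limma adjusted p = 0.00778 and 0.00446). GID1A, another receptor, differed by 0.49 on water (adjusted p = 0.0620) and was higher in ga1-3 by 0.61 on KAR1 (adjusted p = 0.0263). SLY2, an F-box protein of the SLEEPY family, passed as lower in ga1-3, by 0.05 at a level near 2.1 in both genotypes, far under 16. GID1B, SLY1 and SPY, an O-fucosyltransferase that acts on DELLA proteins, did not pass on either medium. Of 15 early DELLA targets known from Arabidopsis seedlings 6 were measured, none passed on water in that fit and GID1A alone did on KAR1. Of 10 GASA genes, a family of small cysteine-rich proteins many of which answer to gibberellin, 4 were measured and 2 passed as lower in ga1-3, all under 16 in both genotypes.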

How the data were processed

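RNA of 14 seed samples, 7 ug each per the labels' protocols, was measured on 3′ expression arrays. The deposited intensity, 1 value per probe set and array from 3.5 to 39328.1, was made by the authors with GCRMA (version not given in the sources used here), per the submitters' processing notes. Scanner values were not used here, so probes could not be called detected. Each of the 14 columns belongs to 1 labelled sample. Tests ran on 22746 of 22810 probe sets, without the 64 controls, on the log2 of the intensity and with no filter on low values.

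Names came from the platform annotation, which pairs 13513 probe sets (59.4%) with 1 gene, and from a RefSeq gene table. limma 3.58.1 in R 4.3.3 was fitted with 1 mean for each of the 4 groups on the full set of arrays (eBayes with trend and robust, two-sided, Benjamini-Hochberg over all probe sets), and was tested on simulated data first. ± is a standard deviation after a level and a standard error after a difference. The seed batch as block was fitted beside it, since the labels tie letters to seed: deviations from group means within a pair correlated at 0.557 to 0.778 in ga1-3 and at 0.507 to 0.855 in Ler. Arrays carry no counts, so their number limits the precision.

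The members, the gene lists and the role groups were chosen with earlier results of these data known. The named genes are annotated members: 12 with the widest gap, 12 with the highest ga1-3 mean, 6 with the widest and 6 with the narrowest ga1-3 range, those nearest the threshold, those called on KAR1 and the 4 smallest p in each direction. Members given by role and those given by probe set were added after their values were seen. Of 21 gene families searched by words in the annotation, glutathione transferases held 1 member (GSTL3) and the others none; that annotation mostly lists locus names, so the search misses genes. The lists for endosperm, seed coat and pollen had 1, 3 and 1 measured genes and no member, and 1 of them, the seed coat gene AT1G71250, passed as lower in ga1-3, at 2.08 in ga1-3 and 2.15 in Ler on the log2 scale. The alternatives were quantile normalization, a floor at 16, a minimum mean, other gaps, plain eBayes, each array or seed batch left out, the seed batch as block and the spike-in cluster as block.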

Additional observations from a re-analysis of the deposited data

Results flagged for a closer look

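A single array stood apart from the other 3 of its group in 10 of the 72 Ler groups of 4 arrays looked at, by the gap to the nearest array as a share of the group's range. The threshold is met by chance in about 1 of 20 groups where values spread continuously. That rate is no guide for the 4 groups below whose other arrays are tied. For AT5G63130 the Ler KAR1 array of batch A was low, at 5.31 against 5.53 to 5.54 for the others (share 0.946). For AT5G42830 Ler KAR1 B was high, at 3.60 against 3.15 to 3.19 (share 0.928). AT3G46450 was low in batch A on both media, at 3.15 against 3.60 to 3.63 on KAR1 (share 0.926) and at 3.36 against 3.60 to 3.61 on water (share 0.951). AT1G64450 was high in batch D on both, at 2.56 against 2.17 to 2.20 on KAR1 (share 0.919) and at 2.20 against 2.17 on water (share 1). AFR was high in Ler water B, at 2.85 against 2.70 to 2.72 (share 0.851). For AT5G07590, Ler KAR1 A read 2.58 against 2.66 for each of the others (share 1), and for AT3G50590, Ler KAR1 A read 3.04 and Ler water B 3.07 against 3.05 for each of the others (share 1 in both). Except for AT5G63130, all these Ler values lie under an intensity of 16.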

How the results depend on the processing

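Calls on KAR1 were few and moved with the setting. Over both genotypes 1 member passed in the fit as reported. The count was 3 with the seed batch as replicate block (HAT2, 261768_at and 248371_at) and 2 with the spike-in cluster as block (HAT2 and 261768_at). It was 2 with a minimum mean of log2 4 over all arrays, where 67 members were tested (HAT2 and 260140_at). It was 0 with plain eBayes and with quantile normalization, and 0 without both arrays of Ler A, B, C or D or of ga1-3 B or C, and 0 to 2 with each array left out. HAT2 lost its call in 21 settings, at an adjusted p of 0.0529 with plain eBayes, and its direction held in all 27. 260140_at passed with a floor at 16, with the minimum mean and without Ler water D. With the letter shared across genotypes as replicate block, GID1A (0.57, adjusted p = 0.00110) and SPY (0.71, 0.0387) passed as higher in ga1-3 on water, XERICO did on both media (0.51 in each, 0.0280 on water and 0.0275 on KAR1), and SLY1 passed as lower on both (-0.58, 0.00319 on water and -0.39, 0.0191 on KAR1). Deviations of arrays with 1 letter correlated across genotypes at 0.037 to 0.349. On both media ga1-3 A and ga1-3 B correlated best with the Ler batch of their own letter. In contrast, ga1-3 C correlated better with Ler B and D than with Ler C on both. These correlations do not settle whether the letters pair the genotypes. The letters were not taken to do so, since a letter names different seed in each. In ga1-3 alone the spike-in cluster as block gave 1 call, 261768_at (2.44, limma adjusted p = 0.0294). The genotype counts of 121 on each medium became 67 of the 67 members tested with the minimum mean, by fewer probe sets alone. The number chosen depended on the rule: 55 with a floor at 16, 92 with quantile normalization, 9 with a gap of 2, 388 with a gap of 0.5 and 130 with no minimum level, which adds the probe sets under a mean of 4. It ran from 121 to 191 with each array left out, the highest without ga1-3 water A, and was 410 without both arrays of ga1-3 A. All 121 were among those chosen when an array or a batch was left out, except 1 without ga1-3 water B and 1 without both arrays of ga1-3 B. Leaving arrays out cannot narrow a gap, so a member could be lost only through the minimum mean. That the members were kept is thus no check of the set. For the rest the cause was not tested. Most members are dim in Ler, and a dim signal limits their fold.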

Other observations

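In 2 places annotated members lay close together in the order of the gene table. The chitinase family genes AT2G43580 and AT2G43620 lie 4 genes apart. Between them AT2G43590 averaged 9.42 ± 0.14 in ga1-3 and 8.33 ± 0.25 in Ler (log2 intensity, SD, n = 6 and 8). It was higher in ga1-3 by 1.17 on water and by 1.01 on KAR1 (limma adjusted p = 0.000232 and 0.000627), though its gap of 0.54 kept it out of the set. AT2G43600 and AT2G43610, between the same members, did not pass on either medium and averaged 2.37 and 2.16 in ga1-3 and 2.55 and 2.19 in Ler, all under an intensity of 16.

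AT1G64450 and AT1G64500 lie 5 genes apart. Of the measured genes between them, AT1G64460 passed as higher in ga1-3, by 0.79 on water and 0.92 on KAR1 (limma adjusted p = 5.05e-06 and 1.31e-06), and AT1G64490 passed as lower, by 0.57 on water and 0.53 on KAR1 (adjusted p = 0.00210 and 0.00306), both at levels under 16. Before AT1G64450, AT1G64430 averaged 3.92 ± 0.45 in ga1-3 and 5.02 ± 0.17 in Ler and passed as lower in ga1-3, so neighbours of these members moved both ways. Among the named members, the wild type arrays of AT2G42560 gave the widest spread between seed batches, with batch A at 6.99 on KAR1 and 6.84 on water and the other batches between 9.86 and 10.89.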
